A study of Mus musculus with 16 samples.

Results

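The antigen receptor of OT-I CD8+ T cells and the proteins it is assembled with were followed at the RNA level after Tardbp, the gene of the RNA-binding protein TDP-43, was targeted. The 10 genes described are Trav14d-1, Trav14n-1, Trac, Trbv12-1, Trbc1, Trbc2, Cd3e, Cd247, Cd8a and Cd8b1. They were chosen by their GENCODE symbols among 55536 annotated genes, with results of these same libraries known, and the V gene copies among them are those that held most of the counts. Their differences between the groups are therefore given as a description, with no p-value, and counts of calls among them support nothing. All 10 passed the filter on low counts, as did 16650 genes in all.

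CD8+ T cells of OT-I Tg mice, whose transgenic receptor recognizes SIINFEKL, a peptide of ovalbumin, and which were bred on a Rag1-/- or Rag2-/- background, were electroporated with Cas9 and either a scrambled guide (Control gRNA, 8 libraries) or a guide against Tardbp (Tardbp gRNA, 8 libraries). After transfer into C57BL/6J recipients, both groups received antigen and the costimulatory antibodies anti-OX40 and anti-41BB, so that no unstimulated group enters the comparison. Spleen and lymph node cells were collected on day 4 per the labels, while the methods give a somewhat shorter interval, and sorted on CD8 and on the congenic CD45 markers of the donor. Recipient mice kept their own lymphocytes, and the targeted cells were a pool of edits, not a clone. The study's mice were of both sexes and of a range of ages, not given apart for donors and recipients. A letter M or F, deposited as the sex of each sample, was not split equally. More Control gRNA libraries carried F, and more Tardbp gRNA libraries carried M. CD8, which defines 2 of the 10 genes, was thus also a sorting marker.

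The T cell receptor is a pair of chains, alpha and beta. In each, a variable (V), a joining (J) and, for beta, a diversity segment are joined to a constant (C) region, and the V segment of alpha and beta together with the junctions contacts the peptide bound to MHC class I. The chains have almost no cytoplasmic part. They signal through CD3 epsilon (Cd3e), CD3 delta, CD3 gamma and the zeta chain (Cd247), whose tyrosine motifs are phosphorylated by the kinase Lck, while CD8 alpha (Cd8a) and CD8 beta (Cd8b1) bind MHC class I and bring Lck to the receptor. OT-I uses V alpha 2, encoded by the Trav14 family, and V beta 5, encoded by the Trbv12 family.

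Several of these genes have copies that a read of 100 bases cannot always tell apart. The stretch of V alpha below covers 276 bases of the V region in the GENCODE M21 transcripts (GRCm38, sense strand, 5′ to 3′), shown because it holds the bases that separate the 3 kinds of Trav14 copy that held most of the family's counts. Capitals mark bases that differ from Trav14d-1.
Trav14d-1 and Trav14n-1: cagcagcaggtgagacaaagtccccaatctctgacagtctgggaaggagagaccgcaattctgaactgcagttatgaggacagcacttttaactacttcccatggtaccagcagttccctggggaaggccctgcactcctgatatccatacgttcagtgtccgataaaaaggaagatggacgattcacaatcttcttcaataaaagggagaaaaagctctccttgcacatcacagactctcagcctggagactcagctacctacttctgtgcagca
Trav14d-2: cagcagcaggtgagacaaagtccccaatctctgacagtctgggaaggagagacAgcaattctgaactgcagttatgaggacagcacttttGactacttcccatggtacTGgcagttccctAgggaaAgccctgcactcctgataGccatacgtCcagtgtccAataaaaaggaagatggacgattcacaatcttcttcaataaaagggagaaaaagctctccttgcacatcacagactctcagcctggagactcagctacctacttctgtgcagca
Trav14-3: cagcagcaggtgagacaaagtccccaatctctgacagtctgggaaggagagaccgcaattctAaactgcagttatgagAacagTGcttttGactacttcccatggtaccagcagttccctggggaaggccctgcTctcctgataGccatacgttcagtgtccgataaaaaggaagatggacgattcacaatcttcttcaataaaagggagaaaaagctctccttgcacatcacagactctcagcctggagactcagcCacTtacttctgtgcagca

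Trav14d-1 (ENSMUSG00000095854.4, chr14:52855614-52856166, plus strand) and Trav14n-1 (ENSMUSG00000096827.2, chr14:53166626-53167178, plus strand) have the same cDNA over all 415 bases. Every one of their 316 windows of 100 bases occurs in the other gene, so the counts of each cannot be told apart, and only their sum is a measurement. Trav14d-2 and Trav14n-2 also share 1 cDNA, which differs from Trav14d-1 at 9 of the 276 bases, as does Trav14-3. The 4 other copies differ at 10 or 11 of these bases.

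The V beta gene Trbv12-1 (ENSMUSG00000095574.2, chr6:41113550-41114067, plus strand) shared none of its 290 windows with another gene, and Trbv12-2 differs from it at 32 of the 293 bases of the V exon. That exon is given with the J segments that held the most counts, Traj33 for alpha and Trbj2-7 for beta, since these are the pieces of the receptor that the libraries held in excess.
Trbv12-1: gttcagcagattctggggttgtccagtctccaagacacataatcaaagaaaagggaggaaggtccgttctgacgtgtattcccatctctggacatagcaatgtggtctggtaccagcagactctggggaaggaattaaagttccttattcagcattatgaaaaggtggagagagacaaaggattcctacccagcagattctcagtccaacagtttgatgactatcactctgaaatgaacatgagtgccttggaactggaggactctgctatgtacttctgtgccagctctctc
Traj33: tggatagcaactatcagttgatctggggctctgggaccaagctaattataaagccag
Trbj2-7: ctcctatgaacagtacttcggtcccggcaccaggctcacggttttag

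The constant genes of the beta chain, Trbc1 (ENSMUSG00000076490.6, chr6:41538218-41539881, plus strand) and Trbc2 (ENSMUSG00000076498.2, chr6:41546730-41548352, plus strand), differ at 1 of the 375 bases of exon 1 and at 22 of the 143 coding bases of exons 2 to 4. Trbc1 shared 183 of its 638 windows with Trbc2, which is 28.7% of them, and the same windows are 30.9% of those of Trbc2. The coding bases of exons 2 to 4 are shown, as reads over them assign a count to 1 gene or the other, with capitals where Trbc1 differs from Trbc2.
Trbc2: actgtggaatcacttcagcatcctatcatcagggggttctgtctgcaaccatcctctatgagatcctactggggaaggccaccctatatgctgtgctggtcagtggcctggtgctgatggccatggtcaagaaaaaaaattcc
Trbc1: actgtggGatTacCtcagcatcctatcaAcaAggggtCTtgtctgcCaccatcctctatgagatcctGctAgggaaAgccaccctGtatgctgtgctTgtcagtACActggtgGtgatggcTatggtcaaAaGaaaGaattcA

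Trac (ENSMUSG00000076928.5, chr14:54220521-54224206, plus strand), Cd8a (ENSMUSG00000053977.13, chr6:71373427-71379173, plus strand) and Cd8b1 (ENSMUSG00000053044.8, chr6:71322788-71337494, plus strand) shared no window of 100 bases with another gene. Cd3e (ENSMUSG00000032093.7, chr9:44998740-45009627, minus strand) shared 37 windows with the antisense gene Gm48719, which held at most 36 counts in a library. Cd247 (ENSMUSG00000005763.15, chr1:165788681-165877277, plus strand) shared 99 windows with Gm16565, of at most 114 counts, and exons of Pou2f1 on the opposite strand, of at most 2214 counts, overlap its own. The library kit does not mark the strand, so reads of overlapping genes cannot be told apart.

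Libraries held 73649630 to 93893357 counts in annotated genes in the Control gRNA group and 56016533 to 94801105 in the Tardbp gRNA group. Tardbp gRNA 8, at 56016533, and Tardbp gRNA 5, at 60938197, lay below every Control gRNA library. Tardbp itself had 192 ± 13.3 CPM (counts per 1000000, scaled by TMM; SD, n = 8) in the Control gRNA group and 135 ± 11.3 in the Tardbp gRNA group, with no overlap. In the fit over all genes 7783 of 16650 genes, 46.7%, were called at an adjusted p under 0.05, and 23.5% were called higher in the Tardbp gRNA group. All 10 genes described here were among the latter, a number fixed in part by how they were chosen. The deposited RNA concentration before library preparation did not overlap between the groups, which spanned 34.9 to 197.1 for the Control gRNA libraries and 10.1 to 24 for those of Tardbp gRNA, so that input and guide cannot be told apart. With log2 concentration in the fit, 2697 genes and 9 of the 10 were called. Numbers 1 to 3 alone gave 1696 genes and 7 of the 10. Among these, the Tardbp gRNA libraries all carried the letter M, while the Control gRNA libraries carried both letters. With the letter in the fit over all libraries, 7362 genes and 10 of the 10 were called.

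The alpha chain genes stood higher in all Tardbp gRNA libraries than in any Control gRNA library. Trav14d-1 ranged from 176 to 231 CPM in the Control gRNA libraries, with a median of 202, and from 360 to 452 in the Tardbp gRNA libraries, with a median of 409. Trav14n-1, its copy, ranged from 176 to 231 CPM and from 357 to 445. Neither overlapped between the groups, and their log2 fold changes were 0.98 (SE 0.0622, 95% interval 0.85 to 1.11) and 0.97 (SE 0.0615, 0.84 to 1.10). Over the whole Trav14 family, where the split between copies has no part, the level was 468 ± 51.2 CPM in Control gRNA and 922 ± 63.0 in Tardbp gRNA libraries (SD, n = 8 each), a ratio of 1.97.

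The constant region of the alpha chain, Trac, ranged from 1045 to 1338 CPM around a median of 1172 in Control gRNA libraries. In Tardbp gRNA libraries it ranged from 1725 to 2090 around a median of 1834. The lowest Tardbp gRNA library lay above the highest Control gRNA library, and the log2 fold change was 0.69 (SE 0.0535, 95% interval 0.57 to 0.80). This change was smaller than that of the V region, so that Trav14 family counts per Trac count were 0.4 ± 0.018 in Control gRNA and 0.491 ± 0.0145 in Tardbp gRNA libraries, with no overlap.

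On the beta chain, V and C genes differed by similar amounts. Trbv12-1 ranged from 848 to 1050 CPM in Control gRNA libraries, with a median of 928, and from 1190 to 1595, with a median of 1384, in Tardbp gRNA libraries. Trbc2 ranged from 2335 to 2817 CPM with a median of 2506, and from 3107 to 4132 with a median of 3604. Trbc1 ranged from 698 to 872 CPM with a median of 774, and from 945 to 1345 with a median of 1107. None of the 3 overlapped between the groups. Their log2 fold changes were 0.56 (SE 0.0533, 95% interval 0.45 to 0.67) for Trbv12-1, 0.50 (SE 0.053, 0.39 to 0.62) for Trbc2 and 0.51 (SE 0.0669, 0.37 to 0.65) for Trbc1. Trbc1 made up 23.5% ± 1.32 of the counts of both C genes in Control gRNA and 23.6% ± 0.728 in Tardbp gRNA libraries.

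**Figure D1:**
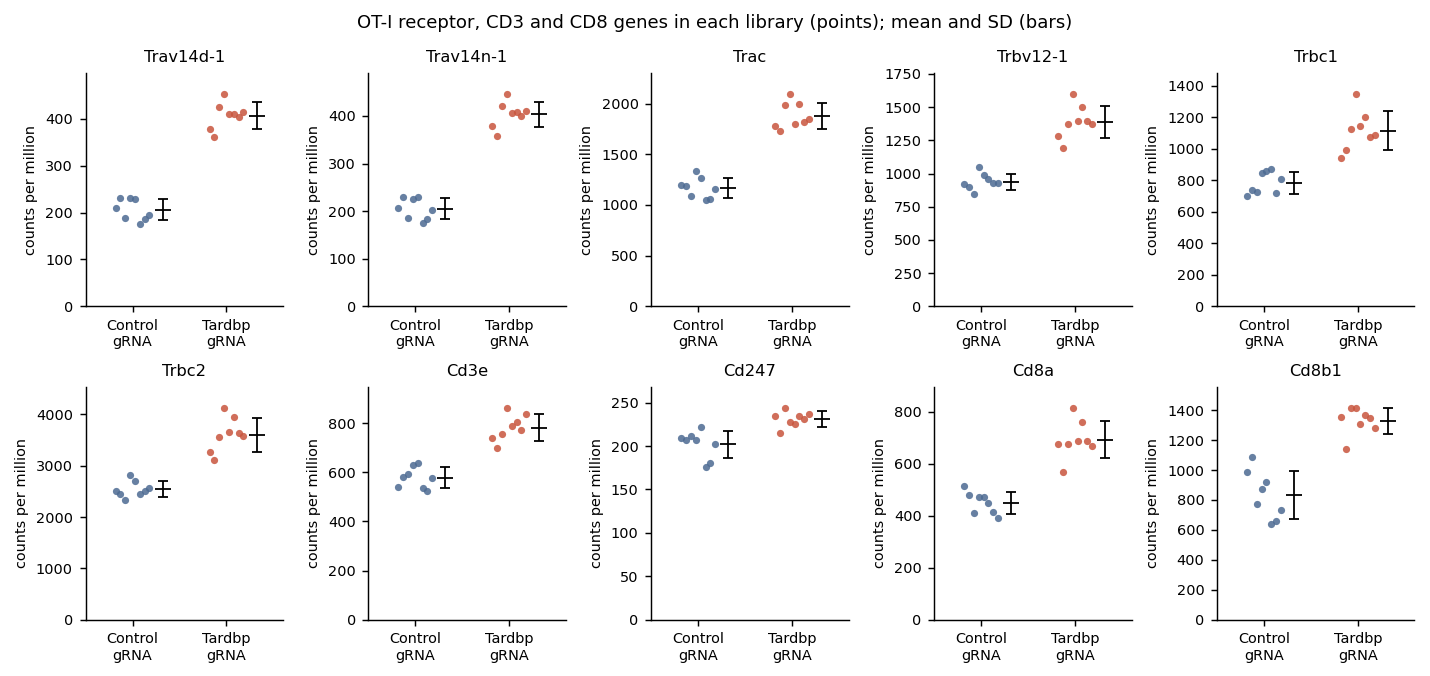
CPM (linear axis from 0) of the 10 genes in each library, 8 Control gRNA and 8 Tardbp gRNA, with points as libraries and bars as mean and SD. The groups do not overlap in 9 of the 10 genes. In Cd247 the Tardbp gRNA libraries start at 215 and the Control gRNA libraries reach 221.

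Among the signalling chains, Cd3e and Cd247 moved by different amounts. Cd3e ranged from 523 to 636 CPM around a median of 580 in Control gRNA libraries and from 697 to 862 around a median of 779 in Tardbp gRNA libraries. Its log2 fold change was 0.44 (SE 0.0496, 95% interval 0.33 to 0.54), and the groups did not overlap. Cd247 ranged from 176 to 221 CPM around a median of 207 and from 215 to 244 around a median of 233, so that its groups overlapped, and its log2 fold change of 0.19 (SE 0.0457, 0.10 to 0.29) was the smallest of the 10. Cd247 per Cd3e was 0.35 ± 0.0189 counts per count in Control gRNA and 0.297 ± 0.0198 in Tardbp gRNA libraries, and this ratio did not overlap between the groups.

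The other chains of the complex were not among the genes chosen. Cd3d, which encodes CD3 delta, had 390 ± 35.7 CPM in Control gRNA and 530 ± 53.8 in Tardbp gRNA libraries, a log2 fold change of 0.44 (SE 0.0652, adjusted p = 2.05e-05, edgeR quasi-likelihood test). Cd3g, which encodes CD3 gamma, had 447 ± 40.1 and 752 ± 91.7 CPM, a log2 fold change of 0.75 (SE 0.0714, adjusted p = 2.13e-07). Fcer1g, the Fc receptor gamma chain that can stand in for zeta, was at 1.61 ± 0.666 and 4.03 ± 1.74 CPM, with a log2 fold change of 1.32 (SE 0.279, adjusted p = 0.000731). Its groups overlapped, and which cells its counts came from was not tested. Ptprc, which encodes the phosphatase CD45 and was a sorting marker, had 1509 ± 128 and 1439 ± 75.9 CPM and was not called (adjusted p = 0.272). In the list of receptor partners, itself chosen with earlier results of these data known, 3 of 5 genes were called higher and 0 lower. Of all genes tested, 23.5% were called higher. The median log2 fold change of the list was 0.44, beside 0.05 over all 16650 genes tested.

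Both CD8 genes were higher in the Tardbp gRNA group. Cd8a ranged from 391 to 516 CPM around a median of 460 in Control gRNA libraries and from 570 to 816 around a median of 682 in Tardbp gRNA libraries. Cd8b1 ranged from 637 to 1089 CPM around a median of 824 and from 1142 to 1416 around a median of 1352. The groups did not overlap in either gene. Their log2 fold changes were 0.62 (SE 0.0664, 95% interval 0.48 to 0.76) and 0.67 (SE 0.0941, 0.47 to 0.87). Cd8b1 per Cd8a stood at 1.84 ± 0.251 counts per count in Control gRNA and 1.93 ± 0.115 in Tardbp gRNA libraries and overlapped. Cd8b1 varied most among the Control gRNA libraries, where numbers 1 and 2 had the 2 highest values of Cd8b1 and of Cd8a. In bulk samples, fewer cells of a type and less RNA per cell cannot be told apart.

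**Figure D2:**
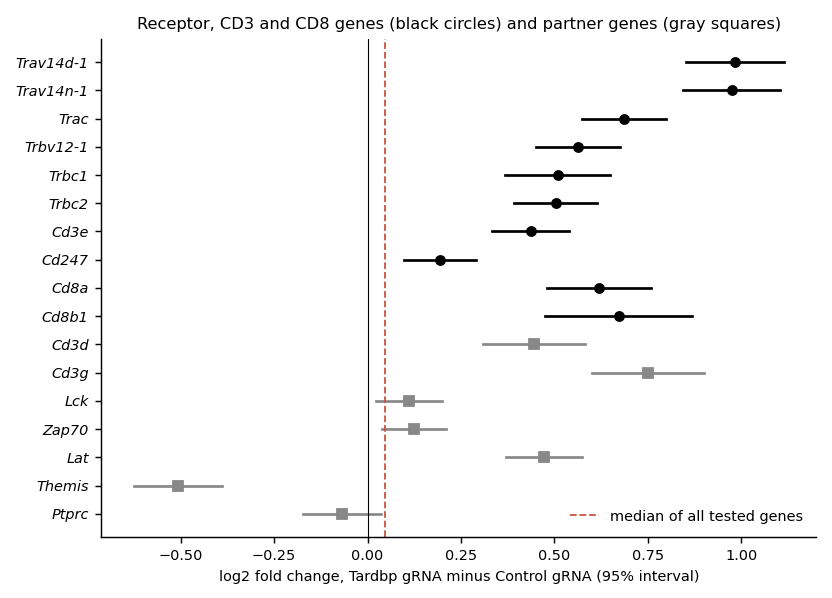
Log2 fold change of each gene, Tardbp gRNA minus Control gRNA, with its 95% interval from the fit over all genes, for the 10 genes described (black circles) and 7 partner genes (gray squares). The 10 lie between 0.19 and 0.98, to the right of the median of all tested genes at 0.05 (dashed line), and Themis lies at -0.51.

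Of the 10 genes, 9 had all Tardbp gRNA libraries above all Control gRNA libraries in CPM, a pattern that 6.61% of all tested genes showed in log2 CPM. Because the genes were chosen with these values in view, nothing is read from that count. Their median log2 fold change was 0.59. Under the scaling to library totals alone the median of all genes moved to 0.12, from 0.05, and the called genes split into 4881 higher and 3135 lower, beside 3906 and 3877 in the main fit. All 10 genes remained higher and called under it, with log2 fold changes of 0.27 for Cd247 to 1.05 for Trav14d-1. Together, the 10 genes took 0.772% ± 0.0501 of all counts in Control gRNA and 1.21% ± 0.0934 in Tardbp gRNA libraries.

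Levels between genes were compared in CPM per kilobase of exon, taken over the union of annotated exons, which understates genes with long alternative ends or retained introns. In Control gRNA libraries Trbc2 stood first at 3677 ± 222 CPM per kilobase, followed by Trbv12-1 at 2416 ± 155, Trac at 1249 ± 109 and Trbc1 at 1046 ± 92.8. The 2 identical Trav14 copies, taken as their sum over the length of 1 copy, followed at 990.3 ± 106, then Cd8b1 at 562 ± 108, Cd3e at 142 ± 10.3, Cd8a at 124 ± 11.6 and Cd247 at 37.9 ± 2.94. Of neighbours in this order, Trac and Trbc1, Trbc1 and the Trav14 sum, and Cd3e and Cd8a did not differ beyond the ranges of their libraries. In Tardbp gRNA libraries the Trav14 sum, at 1952 ± 131, stood between Trac, at 2010 ± 136, and Trbc1, at 1488 ± 166, and overlapped with both. The other genes kept their order, and Cd3e and Cd8a again overlapped.

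**Figure D3:**
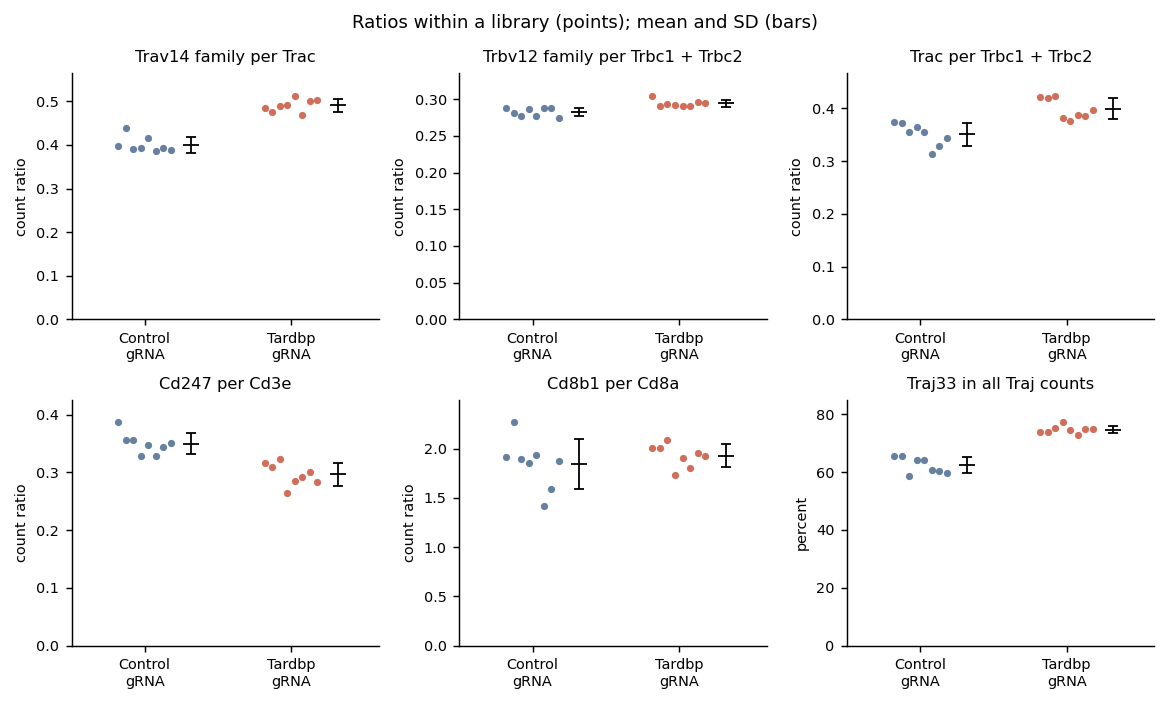
Ratios of counts, and the percent of Traj counts in Traj33, within each library (points; bars are mean and SD; linear axes from 0). Trav14 family per Trac, Trbv12 family per Trbc, Trac per Trbc, Cd247 per Cd3e and the Traj33 percent do not overlap between the groups, while Cd8b1 per Cd8a does.

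The ratios within a library place the differences along the 2 chains. Trac counts per Trbc count were 0.351 ± 0.0213 in Control gRNA and 0.399 ± 0.02 in Tardbp gRNA libraries, and did not overlap. Trbv12 family counts per Trbc count moved less, from 0.283 ± 0.0059 to 0.294 ± 0.00478, again with no overlap. The J segments of both chains were counted as well. Traj33 had 41.0 ± 5.44 CPM in Control gRNA and 82.2 ± 6.13 in Tardbp gRNA libraries (log2 fold change 1.005, SE 0.0752, edgeR). Its share of all Traj counts was 62.4% ± 2.77 and 74.6% ± 1.3. A J segment is joined to the V and C regions of its chain, so the Traj33 difference is a description too. It is not separate from those of the chosen alpha chain genes. Traj49, the next segment, differed by 0.02 on the log2 scale (SE 0.0571, adjusted p = 0.844). Of the 29 Traj genes tested other than Traj33, 6 were called higher and 0 lower, beside 23.5% called higher over all genes. All Traj counts other than Traj33 summed to 24.6 ± 1.83 and 27.9 ± 1.88 CPM.

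Trbj2-7 had 62.2 ± 3.80 CPM in Control gRNA and 90.2 ± 8.07 in Tardbp gRNA libraries, a log2 fold change of 0.54 (SE 0.0564, edgeR). This difference too is a description, not separate from those of the chosen beta chain genes. Trbj2-7 made up 36.3% ± 2.67 and 40.8% ± 2.04 of all Trbj counts. Trbj2-1, the next, had a log2 fold change of 0.14 (SE 0.0618, adjusted p = 0.0792). Beside 23.5% called higher over all genes, 2 of the 13 Trbj genes tested other than Trbj2-7 were called higher and 0 lower. These were Trbj1-1, at a log2 fold change of 0.48 (SE 0.0772, adjusted p = 5.98e-05), and Trbj1-2, at 0.47 (SE 0.0916, adjusted p = 0.000328), both named after their values were seen.

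Almost all V counts lay in the 2 families of the transgenic receptor. Trav14 genes held 97.1 to 98.6% of the Trav counts in the Control gRNA group and 97.6 to 98.7% in the Tardbp gRNA group, out of 128 annotated Trav genes. Trav14d-1 held 44.0% ± 0.439 of the family's counts in Control gRNA and 44.1% ± 0.311 in Tardbp gRNA libraries, and Trav14n-1 43.9% ± 0.588 and 43.8% ± 0.335. The lesser copies moved alike where they had counts. Trav14n-2, Trav14d-2 and Trav14-3 had log2 fold changes of 1.04 (SE 0.0831), 1.01 (SE 0.0773) and 0.94 (SE 0.0939) by edgeR. They share windows of 100 bases with Trav14d-1, 18 in each of the first 2 and 13 in the last, so reads of 1 copy may be counted in another. Their differences are therefore a description too and not separate from those of the chosen copies. Trav14-1, Trav14-2, Trav14n-3 and Trav14d-3-dv8 held between 0 and 67 counts in a library and none was called.

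Counts outside these families were few. Their shares were compared with a two-sided exact permutation test over all 12870 ways to split the libraries 8 and 8, adjusted over 3 such tests. The totals of the shares are for the most part counts of the chosen genes, and the third test divides by Trac. These p-values therefore also reflect the differences of the chosen genes and are not separate support. Outside Trav14 the share was 2.31% ± 0.556 of Trav counts in Control gRNA and 1.75% ± 0.348 in Tardbp gRNA libraries, a difference of -0.562 percentage points (exact permutation p = 0.0325, adjusted p = 0.0487). All 8 Tardbp gRNA libraries lay below the Control gRNA median. The call was kept without Control gRNA 1, Control gRNA 2 or Tardbp gRNA 6 and lost without any 1 of the other 13, with adjusted p of up to 0.0942. A share falls when the rest of its total rises, and the counts outside Trav14 themselves stood at 11.03 ± 2.90 CPM in Control gRNA and 16.5 ± 3.89 in Tardbp gRNA libraries, while those of the family stood 1.97 times as high. The leading genes there were Trav21-dv12, at 0.382% ± 0.101 and 0.272% ± 0.0515 of Trav counts, Trav19 at 0.272% ± 0.0913 and 0.151% ± 0.0592, and Trav16 at 0.183% ± 0.0705 and 0.126% ± 0.0467. In CPM their log2 fold changes were 0.47 for Trav21-dv12 (SE 0.181, adjusted p = 0.0399, edgeR), 0.16 for Trav19 (SE 0.251, adjusted p = 0.641) and 0.47 for Trav16 (SE 0.27, adjusted p = 0.165). Of the 25 genes tested outside Trav14, 5 were called higher and 0 lower, beside 23.5% called higher over all genes. Besides Trav21-dv12 the 5 were Trav8-2, Trav23, Trav6d-6 and Trav15-1-dv6-1, named after their values were seen.

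Outside Trbv12 the share went the other way. It was 0.207% ± 0.0555 of Trbv counts in Control gRNA and 0.357% ± 0.112 in Tardbp gRNA libraries (difference 0.15 percentage points, p = 0.00264, adjusted p = 0.00793, exact permutation test), with all 8 Tardbp gRNA libraries above the Control gRNA median. With numbers 4 to 8 alone the difference was 0.139 points and the exact p was 0.0714. Trbv13-2, the pseudogene Trbv11 and Trbv31 led, with 6 to 95 counts in a library, and none of them was called. Where 23.5% of all genes were called higher, 4 of the 9 tested outside Trbv12 were called higher and 0 lower. These were Trbv1, Trbv16, Trbv19 and Trbv29, named after their values were seen, which held 0 to 21 counts in a Control gRNA library and 0 to 107 in a Tardbp gRNA library. Together the genes outside Trbv12 had 1.97 ± 0.638 CPM in Control gRNA and 5.02 ± 1.85 in Tardbp gRNA libraries. Trbv12-2 held 13 to 77 counts, and the pseudogene Trbv12-3 at most 8.

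**Figure D4:**
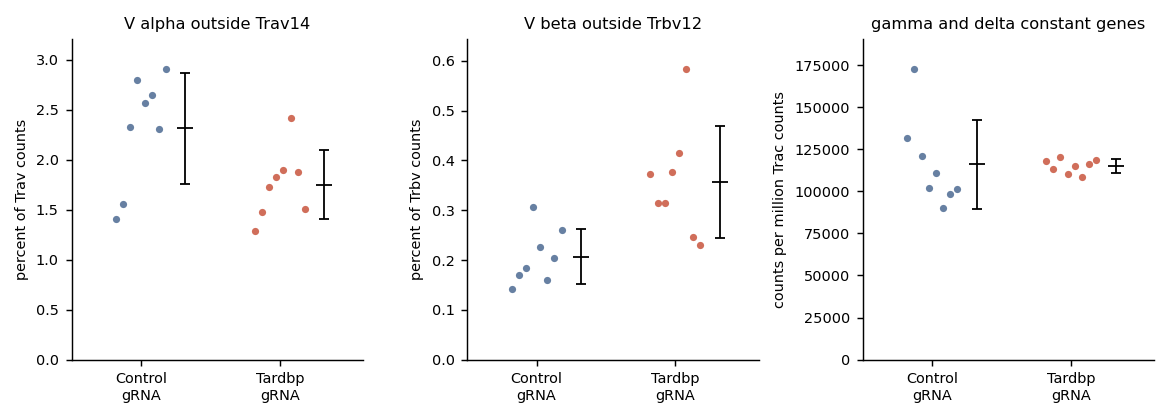
Percent of Trav counts outside Trav14, percent of Trbv counts outside Trbv12, and counts of gamma and delta constant genes per 1000000 Trac counts in each library (points; bars are mean and SD; linear axes from 0). The first share is lower and the second higher in the Tardbp gRNA group, with overlap, and Control gRNA library 2 stands highest in the third at 172904.

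The constant genes of the gamma and delta chains, which belong to a separate lineage of T cells, were also counted. Trdc (chr14:54142851-54148868), which lies within the alpha locus, had 110 ± 21.7 CPM in Control gRNA and 186 ± 11.9 in Tardbp gRNA libraries (log2 fold change 0.75, SE 0.0976, adjusted p = 5.19e-06, edgeR). Trdc per Trac was 0.0942 ± 0.0154 and 0.0991 ± 0.004 counts per count. Tcrg-C4 was at 21.7 ± 14.1 and 24.8 ± 5.21 CPM and was not called (adjusted p = 0.588), Tcrg-C2 at 2.41 ± 0.674 and 3.39 ± 0.938 CPM (adjusted p = 0.0367), and Tcrg-C1 at 1.30 ± 0.554 and 1.86 ± 1.01 CPM (adjusted p = 0.24). Where 23.5% of all genes were called higher, 2 of 4 tested genes of this list were called higher and 0 lower. Their median log2 fold change was 0.50. Summed, these genes had 115944 ± 26530 counts per 1000000 Trac counts in Control gRNA and 115079 ± 4227 in Tardbp gRNA libraries (difference -865, p = 0.949, exact permutation test). Without Control gRNA 1, without Control gRNA 2 and without Tardbp gRNA 6 the difference was positive, at 1337, 7272 and 116, and with numbers 4 to 8 alone it was 13285 (p = 0.0238, adjusted p = 0.0357, exact permutation test). In the marker list of gamma delta T cells, which adds Sox13 and Blk to these 4 genes, 2 of 6 genes were called higher and 1 lower. Sox13, a transcription factor of that lineage, was at 3.95 ± 1.63 and 2.11 ± 1.09 CPM, a log2 fold change of -0.90 (SE 0.301, adjusted p = 0.0201, edgeR), and Blk, a Src family kinase, was at 1.74 ± 0.791 and 1.09 ± 0.530 CPM (adjusted p = 0.206).

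Genes of early receptor assembly had few counts. Rag1, a recombinase gene that one of the donor strains lacks, was at 0.134 ± 0.135 and 0.161 ± 0.15 CPM (adjusted p = 0.78). Ptcra, the alpha chain of the pre-receptor, was at 0.261 ± 0.0575 and 0.162 ± 0.0344 CPM, a log2 fold change of -0.68 (SE 0.252, adjusted p = 0.0327). Rag2 and Dntt, the terminal transferase, did not pass the filter, with 113 and 12 counts over all 16 libraries. Of this list 1 of 2 tested genes was called, lower, and the median log2 fold change was -0.20.

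Other genes of the receptor's pathway went in both directions. In the proximal signalling list 6 of 20 genes were called higher and 6 lower, with a median log2 fold change of 0.01. Of all 16650 genes tested, 3906 were called higher and 3877 lower, so the split is not read as a trait of this list. Lat, the adaptor that gathers the signal, had a log2 fold change of 0.47 (SE 0.0486, adjusted p = 4.64e-07), Grap2, its partner, of 0.41 (SE 0.0735, adjusted p = 0.000174) and Ubash3b, a phosphatase of the pathway, of 0.25 (SE 0.078, adjusted p = 0.0135). Lower were Themis, a regulator of receptor signalling in thymocytes, at -0.51 (SE 0.0564, adjusted p = 9.99e-07), Pag1, the anchor of the inhibitory kinase Csk, at -0.40 (SE 0.11, adjusted p = 0.00569), and Vav1, an exchange factor, at -0.26 (SE 0.0366, adjusted p = 1.37e-05). The kinases Lck and Zap70 were called with small log2 fold changes of 0.11 (SE 0.0422, adjusted p = 0.0373) and 0.12 (SE 0.041, adjusted p = 0.0191).

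Among regulators of CD8 and CD4 expression and of T cell identity, 4 of 16 tested genes were called higher and 5 lower, with a median log2 fold change of -0.15. Higher were Tcf7, at 0.64 (SE 0.0908, adjusted p = 1.52e-05), Ikzf3, at 0.47 (SE 0.141, adjusted p = 0.0112), and Lef1, at 0.37 (SE 0.0565, adjusted p = 3.33e-05). Lower were Satb1, at -0.64 (SE 0.204, adjusted p = 0.0145), Gata3, at -0.33 (SE 0.111, adjusted p = 0.0214), and Myb, at -0.30 (SE 0.0855, adjusted p = 0.00675). Runx3, a factor that activates Cd8a and silences Cd4, was at 87.5 ± 10.9 and 78.1 ± 13.2 CPM and was not called (adjusted p = 0.179).

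Other T cell surface proteins gave 7 of 15 genes called higher and 4 lower, with a median log2 fold change of 0.12. The calls over all 16650 genes tested were 3906 higher and 3877 lower. Cd7 had a log2 fold change of 1.30 (SE 0.231, adjusted p = 0.000152), Cd27, a costimulatory receptor, of 0.72 (SE 0.0653, adjusted p = 1.47e-07) and Cd160 of 0.60 (SE 0.0855, adjusted p = 1.47e-05). Slamf1, at -0.81 (SE 0.119, adjusted p = 2e-05), Cd6, at -0.26 (SE 0.0734, adjusted p = 0.00752), and Spn, at -0.22 (SE 0.0608, adjusted p = 0.00561), were lower.

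The labelled cell type was checked against its markers and those of other cells. Counts of calls in these lists stand beside the 23.5% called higher over all genes tested. Cd4 was at 0.23 ± 0.238 and 0.22 ± 0.203 CPM, and 0 of the 4 CD4 T cell markers were called, Zbtb7b being the highest at 3.01 to 12.4 CPM in Control gRNA libraries. The summed gamma delta T cell list, described above, was 100.1 to 210 CPM across Control gRNA libraries and 200 to 245 across Tardbp gRNA libraries. The summed B cell list was 389 to 475 CPM across Control gRNA libraries and 553 to 722 across Tardbp gRNA libraries, of which Ighm alone gave 367 to 452 and 534 to 698, while Pax5 held 2 counts in all. Myeloid markers summed to 25.3 to 45.9 and 32.1 to 92.1 CPM (2 of 7 tested genes higher, Lyz2 the highest). Natural killer cell markers summed to 12.6 to 63.4 and 37.2 to 101 CPM (1 of 3 higher, Eomes). Eomes alone gave 12.03 to 62.9 and 33.7 to 98.4 CPM of that sum. Ncr1 and Klrb1c, the other genes tested, were not called (adjusted p = 0.353 and 0.0828, edgeR). Which cells the Eomes counts came from was not tested. Dendritic cell markers summed to 3.41 to 7.73 and 5.03 to 9.31 CPM (1 of 3 higher, Zbtb46). Xcr1, the gene of that list with the highest level, had a log2 fold change of -0.22 and was not called (adjusted p = 0.355, edgeR). Red cell precursor markers summed to 0.442 to 17.4 and 9.02 to 181 CPM (4 of 4 higher, Hba-a1 among them). The summed CD8 T cell list was 3588 to 4478 and 5426 to 6924 CPM. Besides Cd3d and Cd3g, this list holds Cd3e, Cd247, Trac, Cd8a and Cd8b1, which were among the genes chosen. Its sum therefore repeats their differences and is not a separate check of the cell type. The part of these other cells in the differences above was not tested.

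Transcripts of the genes were then compared by their share of the gene's counts. Over 32701 transcripts of 8325 genes, 0.63% had a changed share, at a limma adjusted p under 0.05 and a difference over 0.1, and none of these was a transcript of the 10 genes. Cd8a is read as 3 transcripts. Cd8a-201 holds a 31-base exon (chr6:71375888-71375918, exon 4) that Cd8a-202, the form whose protein has a shorter tail, skips, and Cd8a-203 retains an intron. The exon is shown as the part on which the split turns.
Cd8a exon 4: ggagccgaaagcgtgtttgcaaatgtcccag

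Cd8a-201 held 25.1% ± 1.22 of the gene's counts in Control gRNA and 24.6% ± 2.52 in Tardbp gRNA libraries (difference -0.52 percentage points, 95% interval -2.60 to 1.55, limma adjusted p = 0.86). Cd8a-202 held 37.3% ± 1.74 and 36.7% ± 3.05 (difference -0.56, -3.16 to 2.04, adjusted p = 0.884), and Cd8a-203 held 37.6% ± 1.61 and 38.7% ± 1.32 (adjusted p = 0.505). Cd3e-202, which retains an intron, held 3.85% ± 0.687 and 5.12% ± 0.795 (adjusted p = 0.0699). Cd247-201 held 99.1% in both groups and Trbc1-202 99.9% and 99.8%.

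Trac was read as Trac-201, a record of 413 bases that ends at the stop codon, and Trac-202, of 935 bases, which has a further exon beyond it. Trac-201 held 42.1 to 47.8% of Trac counts in the Control gRNA libraries. In 7 Tardbp gRNA libraries it held 55.8 to 57.9%, above every Control gRNA library, but in Tardbp gRNA 8 it held 0.0086%. With all libraries the means were 44.9% ± 2.07 and 49.7% ± 20.1 (limma adjusted p = 0.807). Without Tardbp gRNA 8, a comparison made after its value was seen, the difference was 11.9 percentage points (95% interval 10.2 to 13.7, adjusted p = 3.01e-06). The gene's total count does not depend on this split, and Trac in Tardbp gRNA 8 lay between the lowest and the highest of its group.

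**Figure D5:**
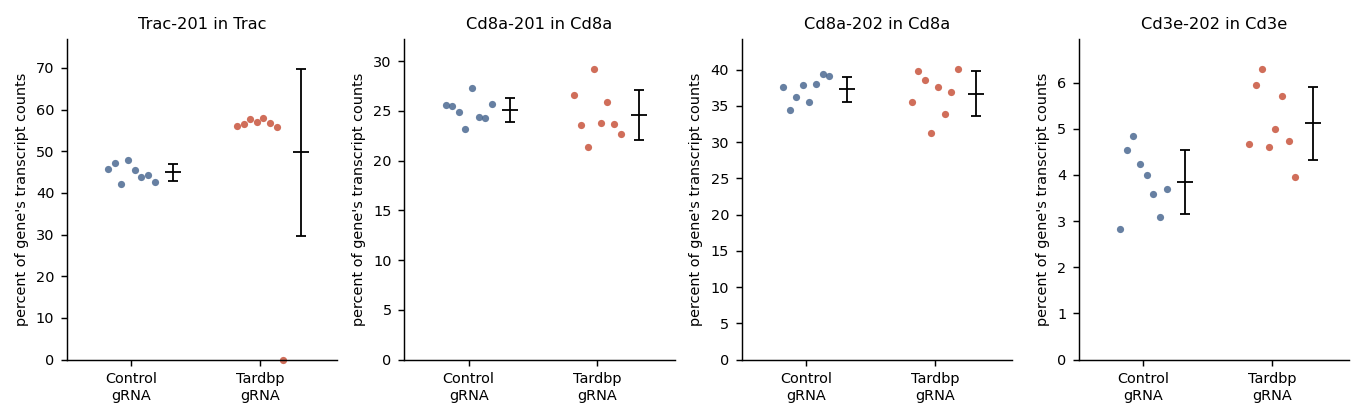
Percent of a gene's transcript counts held by Trac-201, Cd8a-201, Cd8a-202 and Cd3e-202 in each library (points; bars are mean and SD; linear axes from 0). Of the 8 Tardbp gRNA libraries, 7 sit at 55.8 to 57.9% for Trac-201 and the eighth near 0, while both Cd8a transcripts overlap between the groups.

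Exon inclusion (Psi, the share of transcripts that hold an exon or end, given by the authors per group) was listed for 37 nodes of 7 of the 10 genes. None passed a probability over 0.9 together with a difference over 0.1, which 0.473% of all listed nodes did. Of 24 core exons 21 had a Psi of at least 0.97 in both groups. The same 31-base Cd8a exon was at 0.341 in Control gRNA and 0.355 in Tardbp gRNA (probability 0.685). The largest differences were at the ends of Cd247, where Psi of 1 alternative end was 0.527 and 0.43 (probability 0.548) and of another 0.476 and 0.569 (probability 0.572). No Psi per library was used, so these values carry no spread over libraries, only the authors' probability.

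Genes most like 3 of the receptor genes were sought within the groups, by the correlation of log2 CPM after each group's mean was taken off, over 16 libraries and 8976 genes of sufficient level. Nearest to Trac were Traj33 (Pearson r 0.96, Spearman rho 0.94) and Trav14d-2 (0.94 and 0.94). Both are segments of the alpha chain, so their counts are not separate from those of the chosen genes. Nearest to Cd3e were Zfp36 (0.95 and 0.94), an RNA-binding protein that speeds mRNA decay, and Stk17b (0.92 and 0.95), a kinase. Nearest to Cd8a were Xcl1 (0.93 and 0.96), a chemokine, and Trappc2 (0.85 and 0.71). These are descriptions over libraries that share their preparation but differ in depth. Between the 10 genes themselves the highest was 0.99, for the 2 identical Trav14 copies, then 0.97 for Trbc2 and Trbv12-1, and the lowest -0.01, for Cd247 and Trbc1.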

How the data were processed

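RNA of sorted OT-I CD8+ T cells was sequenced in 16 libraries as pairs of 100-base reads. Groups and numbers were taken from the labels. The submitters' processing notes name HISAT2 2.1.0 and SAMtools 1.9 for alignment (mm10) and StringTie 2.1.0, from which the authors took estimated counts of genes and transcripts without normalizing them. These deposited estimated counts are whole numbers at near 2 counts per read pair, so that a count is not an independent molecule. In the count tables, 10 columns each belong to no library listed here and were left aside, and 26345 lines that match no GENCODE M21 gene held 0.0836 to 0.132% of the counts. The deposited Psi values are a fraction per group with a posterior probability from 0 to 1, and a score (the RNA concentration) carries no unit. Which Psi column is which group was taken from the study's text. The difference of Psi was recomputed from the group values, and the authors' own column of it was not used.

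The test over genes was that of edgeR 4.0.16 in R 4.3.3 (quasi-likelihood, TMM, filterByExpr with minimum count 10, minimum total 15, proportion 0.7), two-sided, over all 16 libraries, with calls made where p, adjusted over all genes by Benjamini-Hochberg, fell under 0.05. Transcript shares were tested with limma 3.58.1. Single values were compared by exact permutation in Python 3.11.15 with SciPy 1.17.1, whose smallest p here is 0.000155. DESeq2 1.42.0, other factors and covariates, subsets of libraries and leaving out each library were alternatives. The edgeR and limma fits were tested on simulated data. The study gives 8 individual recipient mice and 8 samples per group, and p-values and intervals measure the spread between samples.

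The 10 genes and the gene lists were chosen with earlier results of these data known. Besides these genes, the Trav14 and Trbv12 families, the leading other segments by mean count, the lists of receptor partners, gamma and delta genes and early receptor genes, and at most 3 called genes in each direction of the 3 longer lists are named. Log2 CPM used a prior count of 2, and genes named from the longer lists had a mean log2 CPM of at least 3. Replicate numbers did not pair the libraries.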

Additional observations from a re-analysis of the deposited data

Results flagged for a closer look

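In 64 groups of 8 values screened for a library far from the rest, 3 stood out, and chance alone gives about 1 in 20 groups, or 3.2 here. Trac-202 held 99.99% of Trac transcript counts in Tardbp gRNA 8 and 42.1 to 44.2% in the other Tardbp gRNA libraries. Tcrg-C4 stood at 53.5 CPM in Control gRNA 2 and at 12.2 to 30.8 in the other Control gRNA libraries. Trbv12 family counts per Trbc count stood at 0.305 in Tardbp gRNA 1 and at 0.29 to 0.296 in the others. The cause was not tested in any of the 3.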

How the results depend on the processing

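All 10 genes were higher in the Tardbp gRNA group under every one of the 26 alternatives to the main fit, and were called in all of them but for Cd247, Cd8a and Cd8b1 with numbers 1 to 3 alone (log2 fold changes 0.11, 0.42 and 0.42) and Cd247 with log2 RNA concentration in the fit (0.20). These fits reuse the libraries whose results were known when the genes were chosen, so calls among the 10 support nothing here either. Over all genes, calls numbered 1696 with numbers 1 to 3 alone and 2697 with the concentration. They numbered 7265 to 7734 when 1 library was left out, with 10 of the 10 genes called each time. With the replicate number as a block, 7645 genes and all 10 genes were called. The correlation of same-numbered libraries was -0.00 to 0.16, and 2 of 8 Control gRNA libraries matched their own number best, so the numbers are not a pairing. They do follow a split of the libraries. On the second principal component of log2 CPM (8.60% of variance), numbers 1 to 3 lay at 9.20 to 49.1 and numbers 4 to 8 at -31.1 to 1.10. With that split as a block, 7930 genes and 10 of the 10 were called. With numbers 4 to 8 alone, the log2 fold changes of Cd8a and Cd8b1 were 0.71 and 0.81. The difference outside Trav14 was -0.672 by group medians and -0.383 on the log2 scale, where the call was lost (adjusted p = 0.119 and 0.0664, exact permutation tests), and -0.692 to -0.476 when 1 library was left out. Outside Trbv12 it was 0.139 with numbers 4 to 8 alone and 0.118 to 0.168 with 1 library left out. The block changed no call of these. For gamma and delta counts relative to Trac, the difference reversed to 9279 by medians, 0.017 on the log2 scale and 13285 with numbers 4 to 8 alone, and ranged from -4581 to 7272 with 1 library left out. Transcripts with a changed share numbered 1455 with no minimum difference, 90 with numbers 4 to 8 alone and 115 with the replicate block, beside 206. Without Tardbp gRNA 8 the Trac-202 share differed by -11.9 points. The percent of Trbc1 in both Trbc genes differed by 0.0476 points, and by -0.31 with numbers 4 to 8 alone. The cause of these changes was not tested.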
